A study of Arabidopsis thaliana with 8 samples.

Results

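Outside the pericentromeres of Arabidopsis thaliana, 627 windows of 1000 bp had single-copy input depth and at least 2-fold more chromatin immunoprecipitation (ChIP) signal for Myc-tagged MBD7 than input in both replicates. They were chosen from 238296 windows that start every 500 bp along chromosomes 1 to 5. Depth was the count in a window divided by the median count of that library over all windows. The choice took windows below 9 Mb or above 20 Mb of chromosome 1, above 9 Mb of chromosomes 2 and 4, below 8 Mb or above 19 Mb of chromosome 3 and below 7 Mb or above 18 Mb of chromosome 5. Of these 136293 arm windows, 91514 had a mean depth of 0.5 to 1.5 over the 4 input libraries and are called single-copy here. Of the single-copy windows, 3152 (3.44%) had at least 20 counts in each MBD7 ChIP library, and 627 (0.685%) also had an MBD7 ChIP depth at least 2 times the MBD7 input depth in both replicates. These 627 are called enriched windows. Their MBD7 ChIP and MBD7 input values are what chose them, so those values, and calls that use them, describe the windows and are no test.

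MBD7 belongs to the methyl-CpG-binding domain family and binds DNA with methylated CpG through its MBD domains. In Arabidopsis it is known as a partner of the IDM proteins, which act with the DNA glycosylase ROS1 in active DNA demethylation and keep some methylated loci from silencing. Most DNA methylation of this genome lies over transposons packed around the centromeres. The arms hold scattered transposon insertions, and many of their genes carry methylated CpG in the gene body.

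Chromatin of whole seedlings 14 days old gave 8 libraries in 4 groups of 2. Input and Myc ChIP were made from WT plants that carry a 35S-SUC2 transgene and from a proMBD7::gMBD7:4xMYC line named MBD7-5 in the labels, in which the genomic MBD7 gene with its Myc tags is driven by its own promoter. ChIP from WT, where no protein was tagged, measured background. Its Myc antibody is listed under the vendor Invitrogen, whereas that of MBD7 ChIP is listed under Millipore, and the protocol text names only the former. Genotype and antibody therefore cannot be told apart between the ChIP groups. Whether the replicates were separate cultures is not labelled, so the p-values rest on a spread between libraries that may be technical. The median window held 61 and 51 counts in the WT input libraries, 63 and 44 in MBD7 input, 12 and 13 in MBD7 ChIP, and 4 and 3 in WT ChIP, for totals of 4971029 to 31459707 counts. With medians this low, depth in WT ChIP moves in coarse steps.

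Most regions of enriched windows were short. Touching or overlapping windows formed 361 regions covering 506.5 kb, of which 218 were a single window, 81 held 2 windows, 37 held 3 and 25 held 4 or more. Overlapping windows share reads, so the windows of a region are not separate measurements. MBD7 ChIP counts in enriched windows had medians of 34 and 36 in the 2 replicates, with maxima of 788 and 524. Median depth ratios of MBD7 ChIP to its input were 2.66 and 2.77, against 0.875 and 0.898 over all single-copy arm windows. Of the 627 windows, 303 had ratios below 3 in both replicates, 60 had 4 or more in both and 21 had 8 or more in both. Median input depths were 1.1 and 1.12 in WT and 1.11 and 1.02 in the MBD7 line.

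Windows just inside and just outside the threshold differed by little. A window over AT3G54730 (chromosome 3, 20260001 to 20261000) was chosen with ratios of 2.507 and 2, and the pseudogene window over AT5G13475 (chromosome 5, 4322501 to 4323500) with 2.003 and 2.64. The window over the pseudogene AT1G65750 (chromosome 1, 24456001 to 24457000) was left out with 1.996 and 2.062, and that over AT3G62725 (chromosome 3, 23203001 to 23204000) with 2.492 and 1.996.

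Each replicate was also used alone to choose windows, so that the other replicate gave a measurement that the choice had not used. Replicate 1 alone chose 1351 arm windows, and 646 of them (47.8%) had a ratio of at least 2 in replicate 2, against 2.38% of the single-copy arm windows it chose from. The median ratio of the chosen windows fell from 2.39 in replicate 1 to 1.93 in replicate 2. Replicate 2 alone chose 1343 windows, of which 669 (49.8%) had a ratio of at least 2 in replicate 1, against 2.05%. The share seen again in the other replicate was larger at higher ratios. Of 106 windows with a ratio of 4 or more in replicate 1, 102 (96.2%) were at 2 or more in replicate 2, but of 789 windows with 2 to 2.5 only 254 (32.2%) were. For replicate 2 these counts were 123 of 137 (89.8%) and 221 of 680 (32.5%).

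The gene content of the enriched windows differed from that of the single-copy arm windows. Windows were classed by the RefSeq genes they overlapped, in the order pseudogene (the biotype under which this annotation lists transposable element genes), transcribed pseudogene, protein-coding gene, RNA gene and, with none of these, intergenic. Pseudogene windows made up 162 of the 627 (25.8%, 95% Wilson interval 22.6 to 29.4, counting error only) but 1% of single-copy arm windows. Of every 100 single-copy pseudogene windows 17.7 were enriched. The interval takes each window as separate, although overlapping windows share reads, and is therefore too narrow. Intergenic windows made up 175 (27.9%) against 7.09% of single-copy windows, which is 2.7 of every 100. Protein-coding windows were the most numerous class, with 258 (41.1%), but made up 89% of single-copy windows, and only 0.317 of every 100 were enriched. Transcribed pseudogenes gave 12 windows and RNA genes 20.

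**Figure D1:**
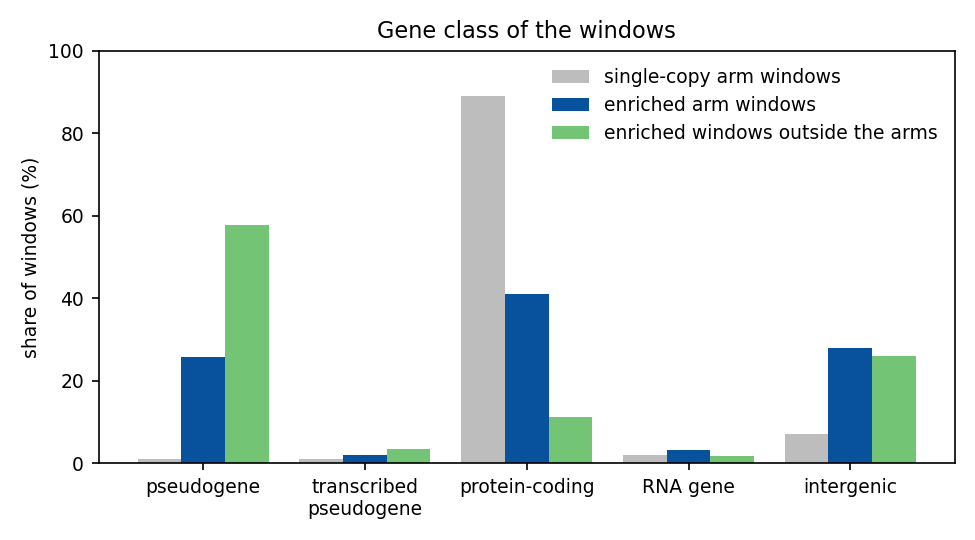
Share of windows (%) in each gene class for all 91514 single-copy arm windows, the 627 enriched arm windows and the 8506 windows outside the arms that met the same conditions. In this order pseudogene windows make up 1%, 25.8% and 57.7%, and protein-coding windows 89%, 41.1% and 11.2%. The shares over all single-copy windows outside the arms are not shown, so the last set has no base share beside it.

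Single-copy windows near a pseudogene but not over one were enriched at a higher rate than those with none near. Of single-copy arm windows with a pseudogene within 2 kb, 65 of 1370 (4.74%) were enriched, against 400 of 89229 (0.448%) with none. Within the protein-coding class 133 enriched windows lay wholly inside 1 gene, 104 crossed the end of a gene and 21 overlapped several genes. As a share of single-copy windows these were 0.34%, 0.377% and 0.143%. The 627 windows overlapped 204 protein-coding genes, 59 pseudogenes, 11 transcribed pseudogenes and 23 RNA genes.

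The strongest regions lay over pseudogenes, single genes and intergenic DNA. The highest ratios belonged to AT4G06975, a long non-coding RNA gene (chromosome 4, 11208501 to 11209500). MBD7 ChIP held 788 and 524 counts there, MBD7 input 95 and 60, WT ChIP 42 and 18 and WT input 65 and 60, giving depth ratios of 43.55 and 29.56 with tagged protein and 9.854 and 5.1 without. This window was thus high in all 4 ChIP libraries. In WT ChIP it was higher than in WT input by 2.75 ± 0.33 on the log2 scale (SE; edgeR quasi-likelihood adjusted p = 6.4e-09).

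The protein-coding gene AT4G19270 (chromosome 4, 10537501 to 10538500) followed, with 206 and 456 counts in MBD7 ChIP, 88 and 65 in MBD7 input, 4 and 6 in WT ChIP and 88 and 62 in WT input. Its depth ratios were 12.29 and 23.74 with tagged protein and 0.6932 and 1.645 without. The MBD7 ChIP libraries were far above the other 6, and their own ratios differed. The pseudogene AT1G20390 gave the best window of the region with the most windows, 11 from 7069001 to 7075000 on chromosome 1, which ran on into the protein-coding gene AT1G20400. The best window (7070001 to 7071000) held 209 and 175 counts in MBD7 ChIP, 55 and 47 in MBD7 input, 1 and 0 in WT ChIP and 56 and 45 in WT input. WT ChIP was at 0.1582 of the count that WT input depth predicts there (95% counting interval 0.004006 to 0.8817, counting error only). A second region over AT1G20390 (7066001 to 7067000) had ratios of 13.47 and 10.93.

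Next came the pseudogene AT4G16870 on chromosome 4 (9484501 to 9485500), beside the immune receptor gene RPP4, with 157 and 154 counts in MBD7 ChIP against 51 and 37 in its input and ratios of 16.16 and 14.09. WT ChIP held 5 and 0 counts there. The pseudogenes AT4G20490 (chromosome 4, 11037501, ratios 12.59 and 8.491) and AT3G60930 (chromosome 3, 22514501, ratios 9.273 and 8.432) were also well above input in both MBD7 replicates. WT ChIP had 3 and 4 counts at the former and 8 and 4 at the latter. AT4G16900 (chromosome 4, 9512501), an immune receptor gene of the RPP5 cluster, had ratios of 7.125 and 8.434, and AT1G56530 (chromosome 1, 21180501) had 5.084 and 11.46.

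The other 3 of the 12 strongest regions were intergenic, and those on chromosome 1 had unlike replicates. On chromosome 1 the window from 5966501 had 159 and 178 counts in MBD7 ChIP, but 135 and 32 in MBD7 input and 23 and 2 in WT ChIP. The window from 24832001 on the same chromosome behaved alike, with 97 and 132 counts in MBD7 ChIP, 122 and 36 in MBD7 input and 17 and 1 in WT ChIP. In both windows replicate 1 of MBD7 input and of WT ChIP was several times replicate 2. On chromosome 3 the window from 6992501 had 60 and 30 counts in MBD7 ChIP, 39 and 16 in MBD7 input and 0 and 1 in WT ChIP.

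**Figure D2:**
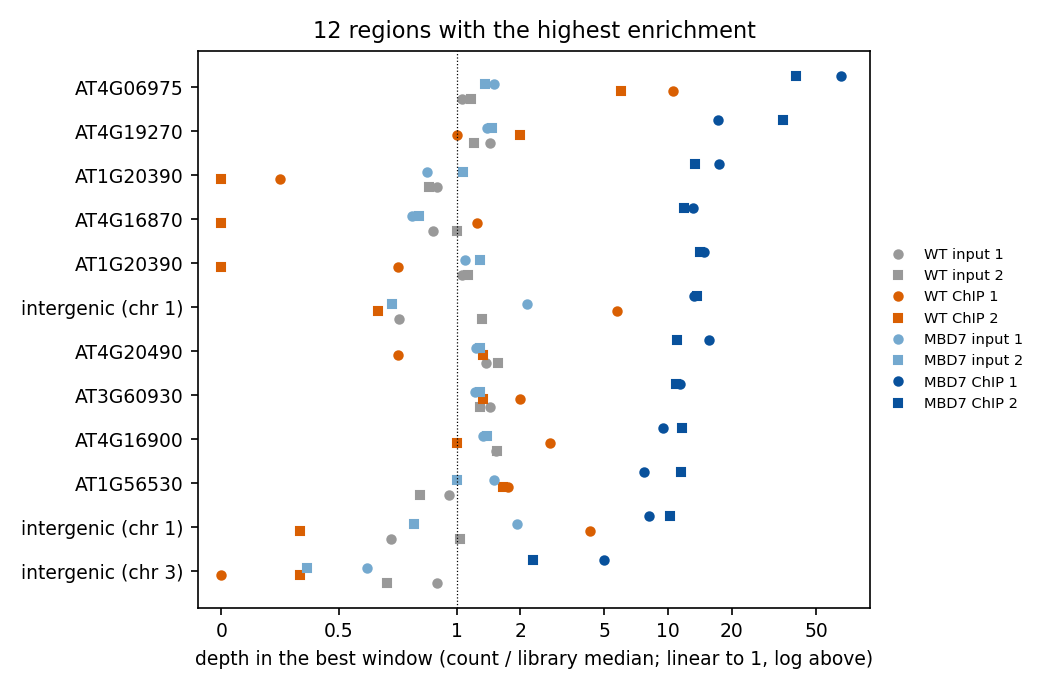
Depth (count divided by the library median, linear up to 1 and log above) in the best window of the 12 regions with the highest mean log2 ratio of MBD7 ChIP to its input, 1 point per library. The MBD7 ChIP points lie to the right of all others in every row, while AT4G06975 has WT ChIP points above its inputs and the intergenic windows of chromosome 1 have unlike replicates of WT ChIP and MBD7 input.

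Long regions lay mainly over pseudogenes. Of the 25 regions of 4 or more windows, 15 had their best window in a pseudogene, 5 in a protein-coding gene and 4 in intergenic DNA, whereas of the 218 regions of 1 window 31, 110 and 62 did. The longest after AT1G20390 were over AT2G21460 (9 windows on chromosome 2 from 9186501 to 9191500), AT3G60930 and its neighbours (8 windows on chromosome 3 from 22513001 to 22519000) and AT4G22410 with AT4G22415 (8 windows on chromosome 4 from 11822001 to 11827000). Depth ratios in the best window were 4.295 and 2.933 at AT2G21460 and 4.134 and 3.546 at AT4G22410. Regions of 6 windows lay over AT4G16870, AT5G53775, AT3G13250, AT1G25430 and AT2G28980, all pseudogenes, with lower-replicate ratios of 14.09, 3.615, 2.675, 2.951 and 2.538. The regions of 5 windows were 6 in number. They lay over the pseudogene AT5G44925 (ratios 7.32 and 5.641) and partly over ESM1, a gene of glucosinolate breakdown (4.184 and 6.846 in an intergenic window beside it). The others lay over the protein-coding genes AT5G19830 and AT5G19840 (4.118 and 3.3), AT2G28640 (3.763 and 3.385), NRPD1 and RPP7, the last together with a pseudogene. The rule for named regions took 12 and so reached only the first 3 of these, and AT2G28640 is named after its values were seen.

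Some regions stood close together. Joining regions under 10 kb apart gave 305 groups, 259 of them of a single region and 7 of 3 or more. The group with the most windows was that of AT1G20390 to AT1G20410, with 15 windows in 3 regions over 13500 bp. A group of 4 regions and 10 windows over 18500 bp of chromosome 4 from 9506001 held AT4G16892, AT4G16900 and AT4G16920, and 3 regions with 9 windows from 9483501 held AT4G16870 and RPP4. Both lie in the RPP5 immune receptor cluster.

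Genes of DNA methylation, of silenced loci and of immunity were looked up from lists. Over all protein-coding genes with a single-copy arm window, 204 of 18747 (1.09%) overlapped an enriched window. Of 5 genes known for heterochromatin inside an intron, 3 did: RPP7, RPP4 and PPD7. RPP7 (AT1G58602), an immune receptor gene whose intron holds a retrotransposon, overlapped 9 enriched windows in 2 stretches of chromosome 1. The best window (21747001 to 21748000) held 50 and 44 counts in MBD7 ChIP, 59 and 52 in MBD7 input, 9 and 4 in WT ChIP and 67 and 50 in WT input. Its ratios were 4.449 and 2.864 with tagged protein and 2.049 and 1.36 without, and WT ChIP did not pass the test against its input (adjusted p = 0.522, edgeR's quasi-likelihood test). Of its other windows, 7 also overlapped the pseudogene AT1G58561, and none of these had a ratio below 2.08.

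At RPP4, in the window from 9488001 that it shares with AT4G16870, MBD7 ChIP held 68 and 81 counts, MBD7 input 70 and 65 and WT ChIP 4 and 4, with ratios of 5.1 and 4.218. The other 2 enriched windows of RPP4 had ratios of at least 2.8. At PPD7 (AT3G05410) both enriched windows lay over the pseudogene AT3G05415, and the best (1557501) had ratios of 2.262 and 3.931. IBM1, the histone demethylase gene with a methylated intron, and AT1G11270 had no enriched window.

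Among 19 immune receptor genes of the list with a single-copy arm window, 4 overlapped an enriched window. These were RPP7, RPP4, RPP5 (best window from 9541501, ratios 2.406 and 3.487) and ADR1-L1, a helper immune receptor gene. ADR1-L1 differed from the others in WT ChIP. Its best window (chromosome 4, 16054501 to 16055500) held 42 and 62 counts in MBD7 ChIP, 75 and 48 in MBD7 input, 15 and 16 in WT ChIP and 97 and 71 in WT input, and WT ChIP was above its input by 1.39 ± 0.31 on the log2 scale (SE; edgeR quasi-likelihood adjusted p = 0.00185).

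In RNA-directed DNA methylation, 1 of 9 genes did, NRPD1, which encodes the largest subunit of RNA polymerase IV. It had 5 enriched windows of 17 single-copy ones, all within the gene. Ratios were 2.07 to 2.38 in replicate 1 and 2.59 to 3.05 in replicate 2, and in the window from 23356501 MBD7 ChIP held 26 and 27 counts against 59 and 30 in its input and 1 and 1 in WT ChIP. Of 12 genes of maintenance methylation only SUVH5, a histone H3K9 methyltransferase gene, did, with 2 windows (ratios 3.01 and 2.17 in the window from 14825001). Of 13 methylation-silenced or imprinted loci, FWA and BNS did. FWA, a homeobox gene silenced by methylated repeats at its start, had 35 and 43 counts in MBD7 ChIP, 85 and 54 in MBD7 input and 18 and 2 in WT ChIP in the window from 13038001, so that its WT ChIP libraries disagreed. BNS, which encodes a subunit of the anaphase-promoting complex, had ratios of 2.75 and 3.479 in the window from 27516501, which it shares with AT1G73175. None of 9 genes of active demethylation, 10 Polycomb targets or 9 reference genes with single-copy windows overlapped an enriched window.

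WT ChIP against WT input asked how much of this was seen without tagged protein. The rule did not use WT ChIP, and used WT input only in the mean input depth. The WT depth ratios therefore owe little to it. The calls are less free of the rule, because the fit shares the spread of a window with the MBD7 libraries that chose it. In enriched windows, WT ChIP was higher than its input in 105 of 627 (16.7%) at an adjusted p under 0.05, against 5.13% of all 232963 windows tested and 447 of the 91514 single-copy arm windows (0.488%). It was lower in 3 enriched windows, against 0.456% of all windows (quasi-likelihood test of edgeR, Benjamini-Hochberg adjusted over all windows). Median depth ratios of WT ChIP to its input were 1.34 and 1.24 in enriched windows and 0.91 and 0.944 over single-copy arm windows. Without WT ChIP replicate 1 the count fell from 105 to 45, and without replicate 2 it was 87. These directions are relative to the typical window. With library size as the only scaling, 3 enriched windows were higher in WT ChIP and 438 lower. Of all 232963 windows tested, 1638 were then higher and 193907 lower. Of the 91514 single-copy arm windows, 17 were higher and 85081 lower.

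The gene classes parted in WT ChIP. Of the 175 intergenic enriched windows 76 (43.4%) were higher in WT ChIP than in its input, against 165 of all 6488 single-copy intergenic arm windows. Their median depth ratios were 2.59 and 2.43, against 1.14 and 1.21 over that class, which ran higher than the other large classes. Of 162 pseudogene windows 3 (1.85%) were higher, against 6 of 915 in the class, with medians of 0.989 and 0.834 against 0.924 and 0.895. Protein-coding windows lay between, with 24 of 258 (9.3%) higher against 250 of 81408, and medians of 1.11 and 1.07 against 0.897 and 0.919. Without WT ChIP replicate 1 these counts were 27 intergenic, 0 pseudogene and 17 protein-coding windows, and without replicate 2 they were 64, 0 and 21. With library size alone they were 1, 0 and 1. The difference between classes was not tested.

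**Figure D3:**
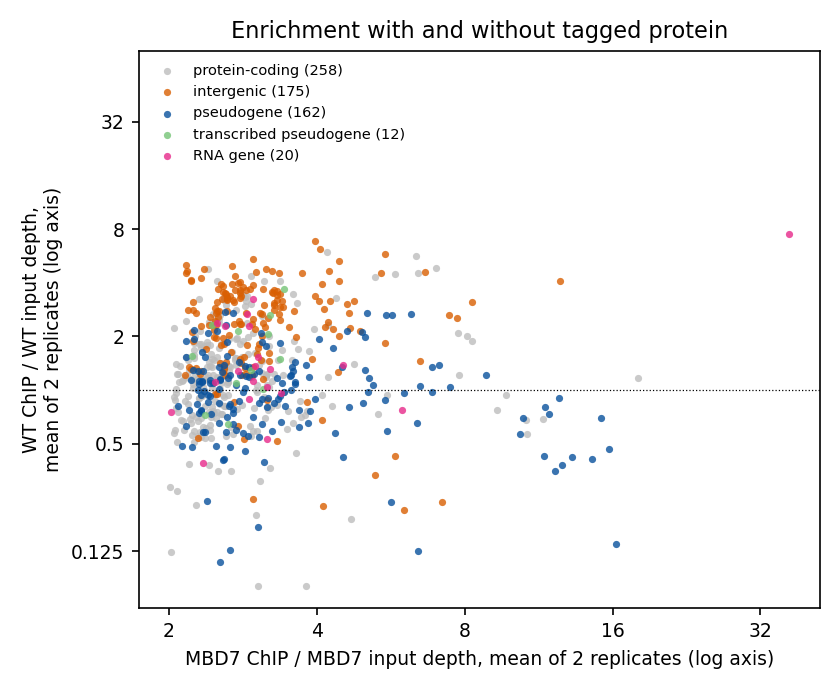
Depth ratio of ChIP to input in the MBD7 line (x axis) and in WT (y axis), both means of 2 replicates on log axes, for the 627 enriched windows by gene class; windows with 0 counts in both WT ChIP libraries are drawn at 0.08. Intergenic windows gather above the dotted line of equal depth, while pseudogene windows lie around and below it. The window with the highest MBD7 ratio, over the RNA gene AT4G06975, lies above the line.

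Regions where WT ChIP was also high differed from the rest in the shape of their MBD7 ChIP depth. For 300 regions whose best window was not higher in WT ChIP, the median MBD7 ChIP depth was 2.83 and 2.77 at the best window and still 1.83 and 1.88 at 1 kb before it and 2 and 2 at 1 kb after it. In the 61 regions whose best window was higher in WT ChIP, it was 2.58 and 2.54 at the best window and 1.17 and 1.38 at 1 kb before and 1 and 0.923 at 1 kb after. These depths are not divided by input, and MBD7 input was also lower around the 61 regions. At 1 kb before, MBD7 input depth was 0.905 and 0.773 in the 61 regions and 1.14 and 1.11 in the 300. At 1 kb after, it was 0.952 and 0.818 against 1.21 and 1.23. WT ChIP depth in those 61 regions was 3.5 and 3.33 at the best window, which is what chose them, and 1 and 1.33 at 1 kb after. Neighbouring windows overlap by 500 bp, so windows 1 kb apart share no position, although a fragment can still lie in both.

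**Figure D4:**
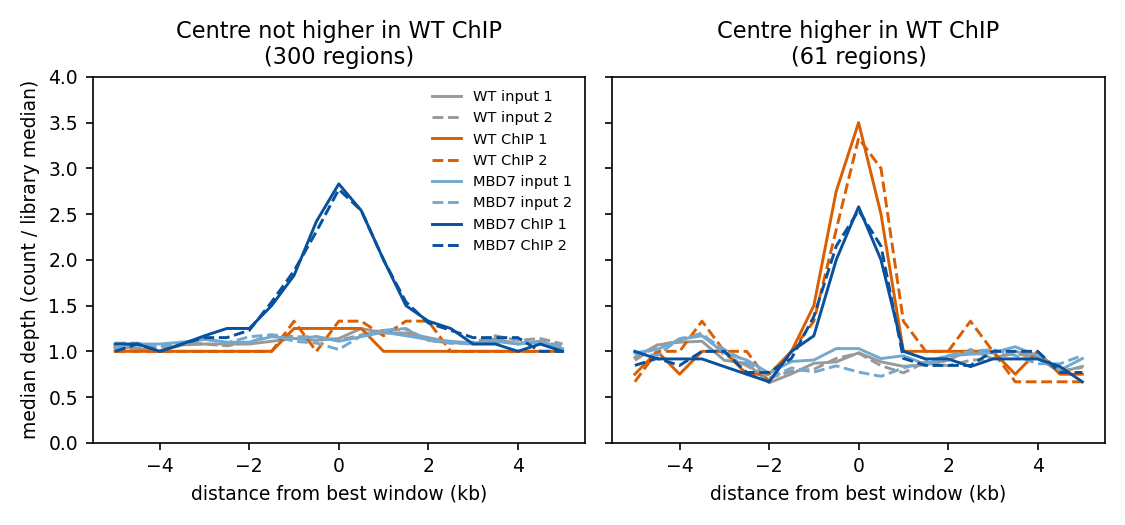
Median depth (count divided by the library median) by distance from the best window of each region, in kb, for the regions whose best window was not higher (left) and was higher (right) in WT ChIP than in its input; solid and dashed lines are replicates 1 and 2. MBD7 ChIP falls to about the input level within 1.5 kb on the right but only by about 3 kb on the left. The inputs are at 1 or somewhat above on the left. On the right they dip and are lowest at 2 kb before the best window. There WT input is at 0.656 and 0.706 and MBD7 input at 0.762 and 0.705.

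Among the best windows of the regions, the 5 with the highest fold change of WT ChIP over its input are given here. After AT4G06975 came an intergenic window of chromosome 5 (5062501 to 5063500), beside AT5G15560, where WT ChIP held 47 and 19 counts, WT input 82 and 89, MBD7 ChIP 63 and 73 and MBD7 input 96 and 53. WT ChIP was above its input there by 2.45 ± 0.26 on the log2 scale (SE; edgeR quasi-likelihood adjusted p = 4.77e-10). Both genotypes were thus high in ChIP at this window. The window of AT2G30730 and AT2G30740 (chromosome 2, 13094501) was higher by 2.3 ± 0.36, the intergenic window beside ESM1 (chromosome 3, 4728001) by 2.27 ± 0.36 and that of AT5G10340 (chromosome 5, 3252501) by 2.18 ± 0.27 (adjusted p = 5.42e-06, 6.05e-06 and 2.9e-08). The window beside ESM1 no longer passed without WT ChIP replicate 2. With library size alone the values of these 5 windows were 0.53 to 1.1, and those of AT2G30730 and of the window beside ESM1 did not pass.

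At the other end were windows with next to no WT ChIP counts. AT3G13370 (chromosome 3, 4341501 to 4342500) had 0 counts in both WT ChIP libraries and 27 and 43 in MBD7 ChIP, with 52 and 53 in WT input. Set against a floor of 3 counts per library, WT ChIP was at least 1.088-fold lower than its input depth predicts. AT5G61910 (chromosome 5, 24861001) also had 0 counts in both, where WT input depth predicts 3.449, and 23 and 44 in MBD7 ChIP. The pseudogene AT5G44925 (chromosome 5, 18142501) had 1 and 0 counts in WT ChIP and 88 and 61 in MBD7 ChIP, and AT1G69090 (chromosome 1, 25976501) had 0 and 1 and 77 and 33. Their WT ChIP counts were 0.1405 (95% counting interval 0.003557 to 0.7828) and 0.1582 (0.004006 to 0.8817) of the predicted ones. These windows were picked as the lowest in WT ChIP, where few counts are predicted in any window, so that intervals below 1 follow from the choice and are no test.

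Enriched windows were spread over all 8 arms, from 0.557 of every 100 single-copy windows in the arm of chromosome 3 above 19 Mb to 0.796 in that of chromosome 1 above 20 Mb. Along the arms they were denser towards the pericentromere. Within the first 1 Mb from the inner end 122 of 10362 single-copy windows (1.18%) were enriched, and in the next 1 Mb 129 of 10392 (1.24%). Beyond 8 Mb it was 51 of 11843 (0.431%). Pseudogene windows did not follow a steady gradient: 20.4% of 216 were enriched in the first 1 Mb and 15.8% of 57 beyond 8 Mb, with 0 of 47 between 5 and 6 Mb and 4 of only 18 between 7 and 8 Mb. For all other windows the share went from 0.769% in the first 1 Mb to 0.356% beyond 8 Mb. Single-copy pseudogene windows themselves became fewer, from 216 in the first 1 Mb to 57 beyond 8 Mb.

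**Figure D5:**
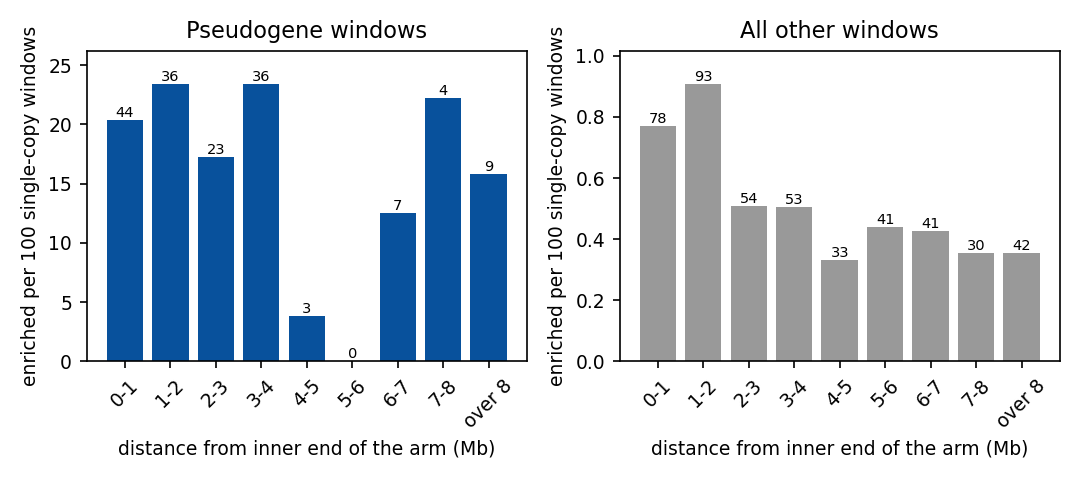
Enriched windows per 100 single-copy windows by distance from the inner end of the arm in Mb, for pseudogene windows (left) and all other windows (right), with the number of enriched windows above each bar; the scales of the panels differ. Pseudogene bars stay at 12.5 to 23.4 except from 4 to 6 Mb, where they are 3.8 and 0, and other windows go from 0.769 to 0.356.

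Outside the arms as bounded here, the same conditions were met by 8506 of 52891 single-copy windows (16.1%). These are the pericentromeres and their borders, with all of chromosomes 2 and 4 below 9 Mb. Their median ratios of MBD7 ChIP to input were 3.44 and 3.17, and 57.7% were pseudogene windows. The pseudogene share over all single-copy windows outside the arms was not determined, so 57.7% cannot be set against it. WT ChIP was higher than its input in 772 of these 8506 windows, 9.08%. The median depth ratios in WT were 1.53 and 1.34, against 1.07 and 1.06 over all single-copy windows outside the arms. In the arms 16.7% were higher, with medians of 1.34 and 1.24 against 0.91 and 0.944 over single-copy arm windows. This difference was not tested.

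The remaining comparisons share libraries with the rule and are descriptions. MBD7 ChIP was higher than its input in all 627 enriched windows, against 18.1% of all windows, and lower in 0, against 6.19%; the rule chose them so. With library size alone 37 were higher and 475 lower, against 3772 and 213930 of all 232963 windows tested. MBD7 ChIP was higher than WT ChIP in 210 enriched windows (33.5%), against 5.78% of all windows, and lower in 1, against 0.491%, a window over AT5G53110. In the interaction of genotype and precipitation 203 were higher in the MBD7 line, against 6.54% of all windows, and 1 was lower, against 0.573%. Without WT ChIP replicate 1 or 2 the count above WT ChIP was 130 or 128. Between the inputs 0 enriched windows were higher in the MBD7 line, against 0.0107% of all windows, and 2 were lower, against 0.00901%, by edgeR's quasi-likelihood test. With p under 0.05 before adjustment there were 21 higher and 47 lower among the 627. Among all 232963 windows tested there were 8000 and 9306, and among the 91514 single-copy arm windows 3770 and 1391. The Wald test of DESeq2 called 0 enriched windows in either direction, against 69 higher and 203 lower of all windows. The 2 lower windows were over PRSL1 near the end of chromosome 4 (18584001, log2 difference -1.13) and over AT5G19830 and AT5G19840 (6705001, -0.90). Their depth ratios were 3.433 and 6.092 at the former and 4.118 and 3.3 at the latter.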

How the data were processed

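The authors deposited unnormalized read counts for windows of 1000 bp every 500 bp on chromosomes 1 to 5 of TAIR10. Bowtie2, SAMtools and featureCounts are named, without versions, per the submitters' processing notes. The treatment of duplicates and of reads with several alignments is not given in the sources used here, and a count need not be an independent molecule. The members and gene lists were chosen with earlier results of these data known. Genes were taken from RefSeq (TAIR10.1), where all list genes were found, and no coordinates of it are printed.

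All 8 libraries entered 1 fit (edgeR 4.0.16, R 4.3.3) after filterByExpr, which kept 232963 windows, and TMM scaling. Its 5 contrasts were tested two-sided by quasi-likelihood, with p-values adjusted after Benjamini and Hochberg and a threshold of 0.05. The fit shares the spread of a window among all groups. Fold changes are relative to the typical window. Each SE was derived as the absolute log2 fold change divided by the square root of the F statistic of its test. DESeq2 1.42.0, other scalings, no filter, non-overlapping windows, a replicate block, left-out libraries and other rule thresholds were alternatives. The fitting code was first checked on simulated counts; all values reported are from the deposited counts. Intervals cover counting error only. Named regions were the 12 with the most windows, the 12 with the highest mean log2 ratio, the 5 highest and 5 lowest in WT ChIP, list genes, and windows beside the threshold. DNA sequence was not analysed here.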

Additional observations from a re-analysis of the deposited data

Results flagged for a closer look

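The change from input to ChIP differed between the genotypes in the interaction of genotype and precipitation in 203 enriched windows that were higher in the MBD7 line, against 6.54% of all windows, and in 1 that was lower, an intergenic window of chromosome 5 from 24186001 (quasi-likelihood test of edgeR, adjusted p under 0.05). The rule used the MBD7 libraries, so this count is not independent of how the windows were chosen. Without WT ChIP replicate 2 it was 123.

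The same difference between the genotypes drew attention to 13 named windows with more than 3 WT ChIP counts. Their direction was largely fixed by the rule, which used the MBD7 libraries, and by their naming for a high MBD7 ratio or many windows, so the values describe them and are no test. The log2 interaction was 4.35 at AT4G16870, 4.12 at AT4G19270, 3.97 at AT4G20490, 2.86 at AT3G60930, 2.8 at AT5G44925, 2.63 at AT4G16900 and 2.5 at AT4G22410 and AT4G22415. It was 2.41 at AT5G19830 and AT5G19840, 2.3 at AT4G06975, 2.01 at AT1G25430, 2.01 at AT1G56530, 1.79 at AT2G21460 and 1.72 at AT5G53775. AT4G06975 is the window that was also far above input in WT ChIP. The window of AT5G19830 and AT5G19840 is among those called lower in MBD7 input than in WT input, and that difference enters its interaction. Without WT ChIP replicate 1 the value was 11.85 at AT4G16870, where the remaining WT ChIP library holds 0 counts and a fitted value is no bound, and 3.41 at AT1G25430, where it holds 1. Values at AT1G25430, AT2G21460 and AT5G53775 missed the threshold under 4, 5 and 6 of the alternatives, among them library size alone, as did AT1G56530 with library size alone.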

How the results depend on the processing

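The number of enriched windows depended on the rule. It was 135 with a ratio of 3, 175 with 40 counts, 376 with a narrower range of input depth, 304 in every second window, 1049 with medians over the arm windows (618 of them shared) and 1343 to 1351 when 1 MBD7 replicate was left out. Pseudogene windows then made up 40% with a ratio of 3, 39.4% with 40 counts, 22.4% with 10 counts, 19.7% with arm medians and 14.3% to 17.8% with 1 replicate. The share higher in WT ChIP was 12.4% with arm medians and 8.73% to 11.6% with 1 replicate. Leaving out windows at 2 times input in WT ChIP in both replicates, chosen after seeing the data, left 30.3% pseudogene windows; it also left 1.79% higher in WT ChIP, a fall that the choice itself brings about. Windows chosen by replicate 1 numbered 646 at a ratio of 2 in replicate 2 and 956 at 1.5.

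With library size alone, enriched windows higher in WT ChIP than in input numbered 3 (pseudogene 0, protein-coding 1, intergenic 1) and lower 438. Over all 232963 windows tested these counts were 1638 and 193907. MBD7 ChIP was then higher than input in 37 enriched windows (3772 of all windows) and lower in 475 (213930 of all). It was higher than WT ChIP in 129 (8319 of all), and the interaction was higher in 81 (5748 of all). The inputs gave 1 higher and 1 lower (1192 and 120 of all). In every second window the counts were 54 higher and 1 lower in WT ChIP (protein-coding 13, intergenic 38), 304 for MBD7 ChIP against input, 96 against WT ChIP and 87 for the interaction. DESeq2's Wald test gave 0 lower in WT ChIP, 128 for MBD7 ChIP against WT ChIP, 119 for the interaction and 0 lower between inputs. Leaving out 1 library gave 45 to 109 higher and 0 to 5 lower in WT ChIP (pseudogene 0 to 3, protein-coding 17 to 25, intergenic 27 to 79), 569 to 627 for MBD7 ChIP against input, 128 to 203 against WT ChIP, 123 to 201 for the interaction and 0 to 3 lower and 0 higher between inputs. The cause of these changes was not tested beyond fewer windows or libraries.

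Replicate numbers showed no pairing: deviations of same-numbered libraries correlated with r from -0.00765 to 0.0392. With a replicate block 5 pseudogene windows in place of 3 were higher in WT ChIP, and 108 in place of 105 of all. WT ChIP, with medians of 4 and 3 counts per window, limits every comparison with it.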
